A study of Mus musculus and Rattus norvegicus with 21 samples.

Results

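The Wnt ligands, their Frizzled receptors and the secreted Wnt antagonists were described in mouse thyroid by the histone marks at their start sites and by the nearby peaks of NKX2.1 and PAX8, transcription factors (TFs) of the thyroid. Members were all protein-coding mouse genes of the RefSeq annotation on GRCm38 whose symbol is Wnt, Fzd, Sfrp or Dkk followed by a number, together with Wif1 and Frzb. This gave 39 genes of 21000 protein-coding genes, namely 19 Wnt ligands, 10 Frizzled receptors and 10 secreted antagonists. Chromatin immunoprecipitation followed by sequencing (ChIP-seq) of H3K4me3 and H3K27me3 had been carried out on thyroid glands of C57BL/6 mice labelled as 1 month old, in 4 groups. These were Glis3-deficient mice on the low iodine diet (Glis3KO-LID), wild-type mice on that diet (WT-LID), Glis3-deficient mice on the NIH-31 normal diet (Glis3KO-ND) and wild-type mice on the normal diet (WT-ND). The labels give the Glis3-deficient genotype as B6.Glis3<tm2(mCherry)Amj>, whereas the study's methods give another allele number. NKX2.1 and PAX8 had been mapped in thyroids labelled WT on the LID, and the methods instead describe Glis3-EGFP mice, older than those of the histone libraries, so factor and histone peaks may come from different mice.

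Wnt ligands are secreted lipid-modified glycoproteins that bind Frizzled receptors and, with the co-receptors LRP5 and LRP6, stabilise β-catenin, while other ligand and receptor pairs signal without it. Sfrp proteins, Frzb and Wif1 bind Wnt ligands outside the cell, and most Dkk proteins block the LRP co-receptors. H3K27me3 is placed by Polycomb repressive complexes, which in many tissues cover the promoters of developmental genes that are silent there, whereas H3K4me3 lies at promoters that are active or poised. NKX2.1 and PAX8 are both required for the thyroid follicular cell, which makes thyroid hormone.

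There was 1 library for each antibody and group, so no comparison had a replicate check and none could be tested. A gene was called marked when at least 1 bp of a peak lay within 1 kb of a start site of a curated transcript, and its covered length is the number of bases under peaks in that window (1 kb either side of the start site), the highest value being taken where a gene has several start sites. The H3K27me3 lists held 18040 peaks in Glis3KO-LID, 2631 in WT-LID, 4116 in Glis3KO-ND and 3050 in WT-ND, and the H3K4me3 lists held 15692 to 17044 peaks. The Glis3KO-LID H3K27me3 list stood apart by its length, and genotype and library cannot be told apart there. The lists carry no score or read number, so the depth behind them is unknown. Of 12 marker genes of follicular cells, 12 carried H3K4me3 in Glis3KO-LID, 10 in WT-LID, 12 in Glis3KO-ND and 11 in WT-ND, and none of 7 immune cell markers did in any library. Whole glands were used, so a mark in fewer cells and less of it per cell cannot be told apart.

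The 3 families had different shares of marked genes. H3K27me3 was found at 30 of 39 members in Glis3KO-LID, 21 in WT-LID, 22 in Glis3KO-ND and 16 in WT-ND. Over all protein-coding genes the shares were 17.4% in Glis3KO-LID, 6.5% in WT-LID, 8.67% in Glis3KO-ND and 6.43% in WT-ND. Each H3K27me3 list was then reduced to its 2631 widest peaks, the length of the shortest list, that of WT-LID, which lost none. The numbers of members were then 20 in Glis3KO-LID, 21 in WT-LID, 22 in Glis3KO-ND and 16 in WT-ND. The higher number of members in Glis3KO-LID was thus not kept. The shares of all genes under this cut were 7.5% in Glis3KO-LID, 6.5% in WT-LID, 7.54% in Glis3KO-ND and 5.96% in WT-ND. Of the 19 Wnt ligands, 19 were marked in Glis3KO-LID, 12 in WT-LID, 13 in Glis3KO-ND and 12 in WT-ND. Among the 10 Frizzled receptors these numbers were 3 in Glis3KO-LID, 2 in WT-LID, 2 in Glis3KO-ND and 1 in WT-ND. Of the secreted antagonists 8 of 10 were marked in Glis3KO-LID, 7 in WT-LID, 7 in Glis3KO-ND and 3 in WT-ND.

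H3K4me3 was found at 27 members in Glis3KO-LID, 33 in WT-LID, 35 in Glis3KO-ND and 33 in WT-ND, beside 60%, 62.9%, 62.5% and 62.2% of all protein-coding genes in those libraries. All 10 Frizzled receptors were marked in each of the 4 libraries. Of the ligands, 12 of 19 carried H3K4me3 in Glis3KO-LID, 14 in WT-LID, 16 in Glis3KO-ND and 15 in WT-ND. Antagonists had 5 of 10 in Glis3KO-LID, 9 in WT-LID, 9 in Glis3KO-ND and 8 in WT-ND. In all 4 libraries 24 members were marked (56.6% of all genes), and 4 members were marked in none (34.1% of all genes), these being Wnt8a, Wnt8b, Wnt16 and Dkk4.

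**Figure D1:**
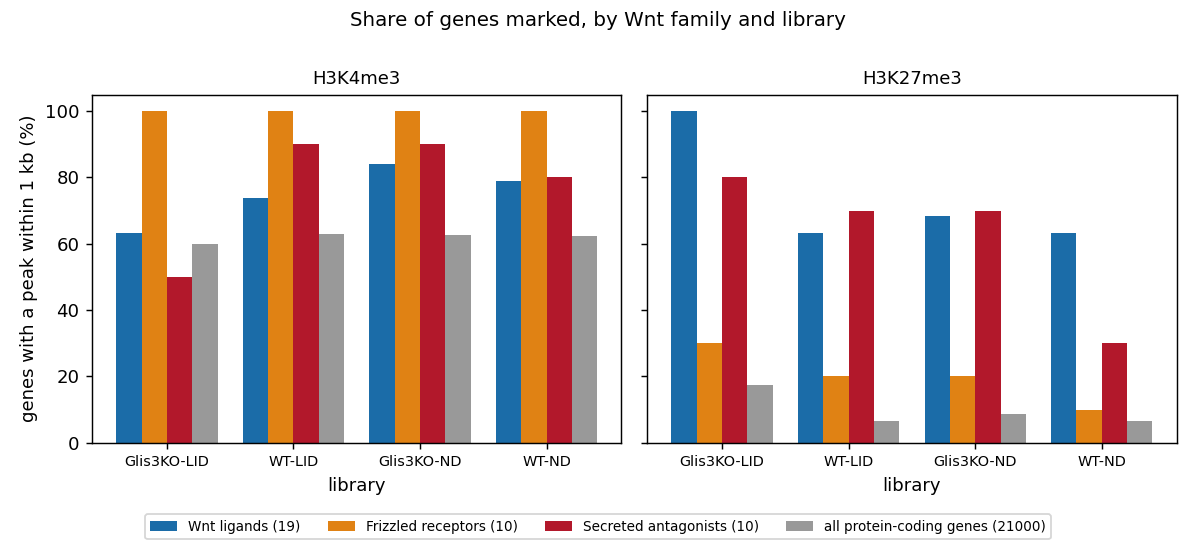
Percentage of genes with a peak within 1 kb of a start site (y axis) in each of the 4 libraries (x axis), for H3K4me3 and H3K27me3, with bars for Wnt ligands, Frizzled receptors, secreted antagonists and all protein-coding genes. All 10 Frizzled receptors carried H3K4me3 in every library, and H3K27me3 was most frequent at the ligands in Glis3KO-LID, where 19 of 19 were marked, while in WT-LID and Glis3KO-ND the antagonists had 7 of 10.

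Frizzled receptors were mostly marked by H3K4me3 alone. Fzd1, Fzd3, Fzd4, Fzd5, Fzd6, Fzd7 and Fzd8 carried H3K4me3 in all 4 libraries and H3K27me3 in none, a state shared by 47.6% of all protein-coding genes. No ligand or antagonist was in it over the 4 libraries. Fzd4, the receptor of Norrin in the retinal vasculature, and Fzd7 had the whole window under H3K4me3 in every library. The covered length of Fzd5, which acts in eye and gut epithelium, was 1032 bp in Glis3KO-LID, against the whole window in each of WT-LID, Glis3KO-ND and WT-ND. Fzd3 and Fzd6, receptors of planar cell polarity, ranged over the 4 libraries between 1298 and 1721 bp and between 1564 and 1720 bp. Fzd7 had the widest H3K4me3 peak of all members in every library but Glis3KO-LID, where Fzd8 had 4780 bp. Its peak measured 4608 bp in Glis3KO-LID, 5432 bp in WT-LID, 4617 bp in Glis3KO-ND and 5774 bp in WT-ND. Fzd4 has its start site 144 bp from that of Tmem135, so the marks and peaks there cannot be assigned to one of these genes.

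The other 3 receptors also carried H3K27me3. At Fzd10 the mark covered the whole window in all 4 libraries, and H3K4me3 covered the whole window in Glis3KO-LID, 1985 bp in WT-LID, 1399 bp in Glis3KO-ND and 1953 bp in WT-ND. H3K27me3 at Fzd9 covered the whole window in Glis3KO-LID, 1207 bp in WT-LID and 1351 bp in Glis3KO-ND, with no peak in WT-ND. At Fzd2 it covered 1088 bp in Glis3KO-LID and no base in the other libraries, whereas H3K4me3 filled the window in all 4.

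**Figure D2:**
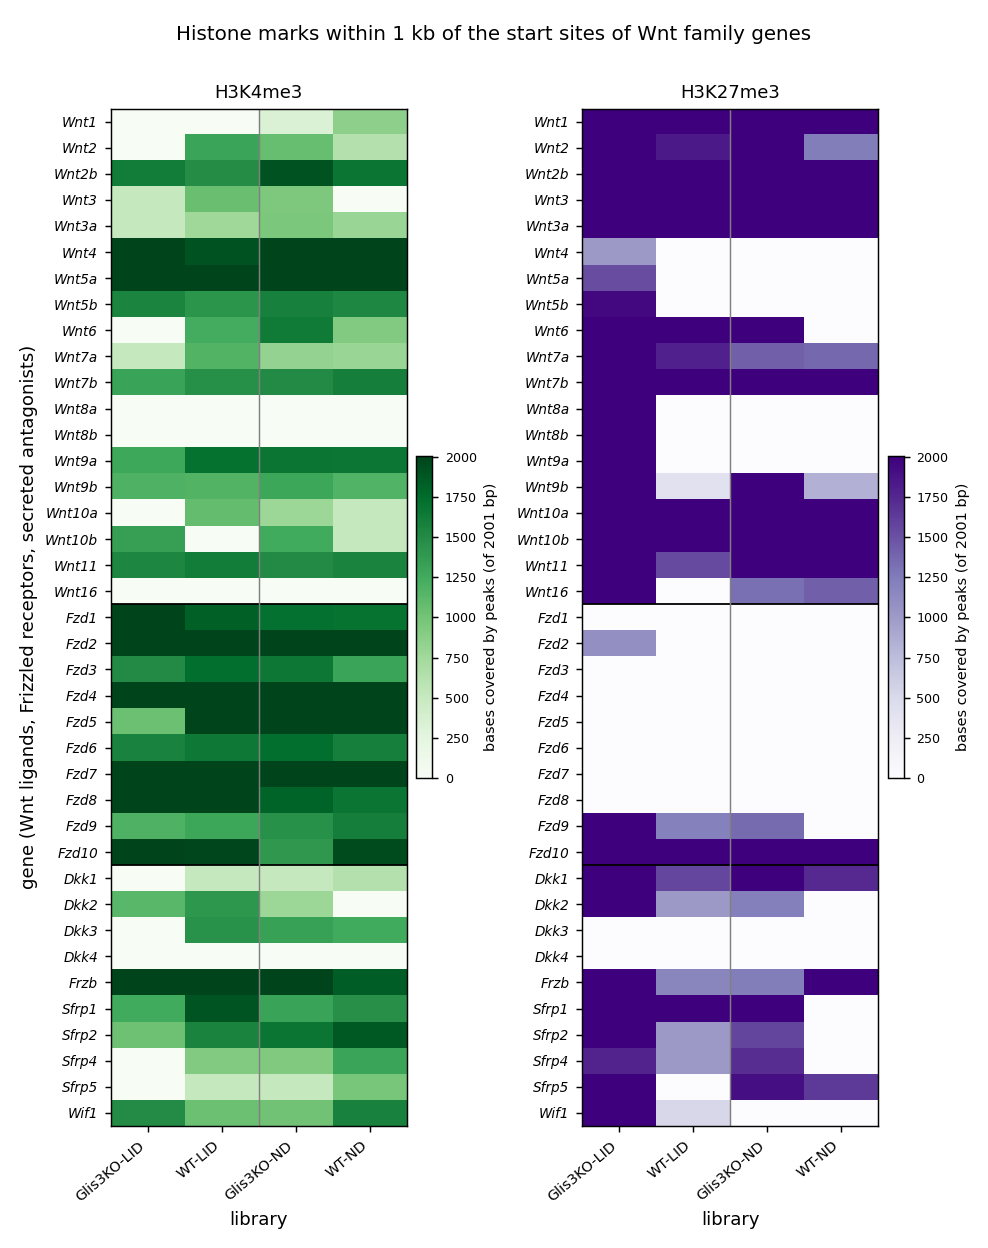
Bases covered by H3K4me3 (left) and H3K27me3 (right) peaks within 1 kb of the start sites of the 39 genes (rows, by family) in the 4 libraries (columns), on a colour scale up to the full window. The rows of Fzd1 and of Fzd3 to Fzd8 are coloured for H3K4me3 in every library, not all over the full window, and empty for H3K27me3. The Glis3KO-LID column of H3K27me3 is coloured at each of the 19 ligands, with 1001 bp at Wnt4, 1527 bp at Wnt5a, 1943 bp at Wnt5b and the full window at the others.

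Most genes with H3K27me3 in every library were Wnt ligands. In all 4 libraries 14 members were marked, beside 4.17% of all protein-coding genes, and 11 of the 14 were ligands. Wnt1 (midbrain development), Wnt2b (lung specification, with Wnt2), Wnt3 (gastrulation), Wnt3a (somite formation), Wnt7b (lung and kidney), Wnt10a (teeth and skin appendages) and Wnt10b (bone and adipose tissue) had the whole window covered in every library. Wnt2, Wnt7a, Wnt9b and Wnt11 were marked in every library over a varying length. At Wnt9b, which induces kidney tubules, H3K27me3 covered the whole window in Glis3KO-LID, 403 bp in WT-LID, the whole window in Glis3KO-ND and 833 bp in WT-ND. At Wnt2 it covered the whole window in Glis3KO-LID, 1834 bp in WT-LID, the whole window in Glis3KO-ND and 1238 bp in WT-ND. Among the genes marked in every library, the covered length was higher in Glis3KO than in WT on each diet at Wnt9b, Wnt2, Wnt7a and the antagonist Dkk1. A wider H3K27me3 peak in Glis3KO was also usual over all genes marked in both libraries of a diet. It was found at 98.4% of such genes on the LID and at 82.2% on the ND. Wnt7a, which patterns the limb, had the whole window in Glis3KO-LID, 1789 bp in WT-LID, 1422 bp in Glis3KO-ND and 1364 bp in WT-ND. Wnt11, a ligand of kidney branching, had the whole window in Glis3KO-LID, 1536 bp in WT-LID, the whole window in Glis3KO-ND and the whole window in WT-ND.

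The 14 genes also included Fzd10, Dkk1 and Frzb. Leaving out the Glis3KO-LID library gave 14 members again, beside 4.18% of all genes. This number could hardly change, since only 3 of all genes (0.0143%) were marked in every library but Glis3KO-LID. Other settings did remove members. Wnt9b was not marked in WT-LID with 500 bp windows or with at least 500 bp covered. With the H3K27me3 lists reduced to the length of the shortest, Dkk1 was not marked in Glis3KO-LID. With the full lists and 1 kb windows, no H3K27me3 in any library was found at 9 members, beside 82.3% of all genes. These were the 7 receptors with H3K4me3 alone, Dkk3 and Dkk4. Without the Glis3KO-LID library this number was 16 (89.6% of all genes), and the number with H3K4me3 in every library and no H3K27me3 was 13 (52.6%). The genes that joined the 7 receptors were then Fzd2, the ligands Wnt4, Wnt5a, Wnt5b and Wnt9a and the antagonist Dkk3.

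A second set of ligands was marked in Glis3KO-LID and in no other library. H3K27me3 was confined to that library at 7 members (7.32% of all genes), namely Fzd2 and the ligands Wnt4, Wnt5a, Wnt5b, Wnt8a, Wnt8b and Wnt9a. With the lists reduced to 2631 peaks, Wnt8b and Wnt9a were the 2 members left, beside 1.31% of all genes. With 2 kb windows and the full lists, Wnt8b was also marked in WT-ND. Covered lengths in Glis3KO-LID were 1001 bp at Wnt4, a ligand of kidney and gonad development, 1527 bp at the downstream start site of Wnt5a, a ligand of limb outgrowth that often signals without β-catenin, and 1943 bp at Wnt5b. Wnt8a, Wnt8b and Wnt9a were covered over the whole window. Wnt4, Wnt5a, Wnt5b and Wnt9a carried H3K4me3 in all 4 libraries. At Wnt4 H3K4me3 covered the whole window in Glis3KO-LID, 1906 bp in WT-LID, the whole window in Glis3KO-ND and the whole window in WT-ND. Wnt9a had 1280 bp of H3K4me3 in Glis3KO-LID, 1698 bp in WT-LID, 1665 bp in Glis3KO-ND and 1663 bp in WT-ND. Wnt8a and Wnt8b, known from the early embryo and the forebrain, had no H3K4me3 in any library. The remaining ligands with a changing call were Wnt6 and Wnt16. Wnt6 was covered by H3K27me3 over the whole window in Glis3KO-LID, WT-LID and Glis3KO-ND and had no peak in WT-ND. At Wnt16, a ligand of cortical bone, H3K27me3 covered the whole window in Glis3KO-LID, no base in WT-LID, 1328 bp in Glis3KO-ND and 1417 bp in WT-ND.

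Among the secreted antagonists the calls varied most between libraries. Dkk1, which blocks the LRP co-receptors, had H3K27me3 over the whole window in Glis3KO-LID, 1558 bp in WT-LID, the whole window in Glis3KO-ND and 1728 bp in WT-ND. Its H3K4me3 was absent in Glis3KO-LID and covered 501 bp in WT-LID, 501 bp in Glis3KO-ND and 627 bp in WT-ND, where 501 bp is the width of the narrowest peaks of that mark. Frzb carried both marks in every library, with H3K27me3 over the whole window in Glis3KO-LID, 1169 bp in WT-LID, 1237 bp in Glis3KO-ND and the whole window in WT-ND. Sfrp1 had H3K27me3 over the whole window in Glis3KO-LID, WT-LID and Glis3KO-ND and no peak in WT-ND. Dkk2, Sfrp2 and Sfrp4 likewise were marked in all libraries but WT-ND. At Sfrp2 H3K27me3 covered the whole window in Glis3KO-LID, 1001 bp in WT-LID and 1570 bp in Glis3KO-ND, where 1001 bp is the width of the narrowest H3K27me3 peaks.

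Sfrp4 was covered over 1774 bp in Glis3KO-LID, 1001 bp in WT-LID and 1709 bp in Glis3KO-ND, and its start site lies 3345 bp from that of Epdr1. For Dkk2 the values were the whole window in Glis3KO-LID, 1001 bp in WT-LID and 1225 bp in Glis3KO-ND. Sfrp5 lacked the mark in WT-LID alone, with the whole window covered in Glis3KO-LID, 1905 bp in Glis3KO-ND and 1629 bp in WT-ND. Wif1, a Wnt-binding inhibitor, had H3K27me3 over the whole window in Glis3KO-LID and 522 bp in WT-LID, with no peak in Glis3KO-ND or WT-ND. Dkk3, a diverged Dkk protein, had no H3K27me3, and its H3K4me3 was absent in Glis3KO-LID and covered 1445 bp in WT-LID, 1326 bp in Glis3KO-ND and 1245 bp in WT-ND. Dkk4 carried neither mark in any library.

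H3K27me3 was compared between Glis3KO and WT to see whether loss of GLIS3 went with a change of the Polycomb mark at Wnt genes. On the LID 9 members were marked in Glis3KO-LID and not in WT-LID, beside 11% of all genes, and 0 members showed the reverse (0.0571% of all genes). The 9 were the 7 genes marked in Glis3KO-LID only, with Sfrp5 and Wnt16. At 16 members Glis3KO-LID exceeded WT-LID by at least 500 bp of covered length (12.7% of all genes), and no member showed a decrease of that size (10 of all genes did). These counts changed with the length of the lists. With every H3K27me3 list reduced to its 2631 widest peaks, 7 members instead of 16 had at least 500 bp more in Glis3KO-LID (4.18% of all genes). Then 3 members (Sfrp5, Wnt8b and Wnt9a) were marked in Glis3KO-LID alone of the LID pair, beside 2.84% of all genes, and 4 members (Dkk1, Dkk2, Sfrp4 and Wif1) in WT-LID alone, beside 1.84%. The WT-LID list was the shortest and lost no peak, whereas Glis3KO-LID lost its narrower ones. Before the reduction these 4 members had peaks of 4110, 4360, 3123 and 3075 bp in Glis3KO-LID. In WT-LID they had 2025, 1001, 1001 and 1563 bp, so their WT-LID calls follow from the cut by width and show no reversal.

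On the ND 6 members were marked in Glis3KO-ND and not in WT-ND, beside 3.3% of all genes, and 0 showed the reverse (1.07%). The 6 were the antagonists Sfrp1, Sfrp2, Sfrp4 and Dkk2, the receptor Fzd9 and the ligand Wnt6. Reducing the lists to 2631 peaks left the same 6 members. Under that cut 7.54% of all genes were marked in Glis3KO-ND and 5.96% in WT-ND. The unchanged number shows only that the calls at these members held, and not whether members differ from other genes. None of these 6 was among the 9 members of the LID comparison, since all of them were also marked in WT-LID. Marked in both Glis3KO libraries and in no WT library were 0 members, beside 1.76% of all genes.

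H3K27me3 also varied between libraries at markers of some other cell types. H3K27me3 was found at 7 of 10 fibroblast markers in Glis3KO-LID, 5 in WT-LID, 4 in Glis3KO-ND and 2 in WT-ND, with summed covered lengths of 13.1, 7, 8 and 4 kb in those libraries. Of the same 10 genes, 3 carried H3K4me3 in Glis3KO-LID, 6 in WT-LID, 6 in Glis3KO-ND and 4 in WT-ND, summing to 4.84, 8.77, 7.48 and 3.84 kb. Col3a1, Dcn and Lum, which define fibroblasts, had no H3K4me3 in any library, while Pdgfra, Twist1 and Prrx1 had it in all 4. Col1a1 lacked it in both Glis3KO libraries, and Col1a2 and Twist2 lacked it in Glis3KO-LID and WT-ND. H3K27me3 at the 4 C cell markers was found at 4 in Glis3KO-LID, 2 in WT-LID, 3 in Glis3KO-ND and 2 in WT-ND, with summed lengths of 7.71, 3.78, 5.49 and 3 kb. The part of fibroblasts and C cells in the values at the Wnt genes was not tested. H3K4me3 at the 7 endothelial markers was found at 6 in Glis3KO-LID, 6 in WT-LID, 3 in Glis3KO-ND and 3 in WT-ND, and H3K27me3 at the 12 follicular cell markers at 4 in Glis3KO-LID, 0 in WT-LID, 1 in Glis3KO-ND and 2 in WT-ND. Outside Glis3KO-LID, the number of genes with H3K27me3 did not vary at the other markers. H3K27me3 was at 3 endothelial markers in Glis3KO-LID and 1 in each of WT-LID, Glis3KO-ND and WT-ND. The covered lengths of H3K27me3 there did vary, summing to 3.12, 0.915, 2 and 1.32 kb in those libraries. Of 6 skeletal muscle markers, 4 carried it in Glis3KO-LID and 3 in each of WT-LID, Glis3KO-ND and WT-ND. Of 7 immune markers, 1 did in Glis3KO-LID and 0 in each of WT-LID, Glis3KO-ND and WT-ND. The part of these cell types in the result was not tested either.

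On the LID H3K4me3 was found at fewer members in Glis3KO than in WT. The H3K4me3 list itself covered 22.56 Mb in Glis3KO-LID, against 26.73 Mb in WT-LID. Marked in WT-LID and not in Glis3KO-LID were 7 members, beside 4.34% of all genes, and 1 member (Wnt10b) showed the reverse (1.41%). The 7 were the antagonists Dkk1, Dkk3, Sfrp4 and Sfrp5 and the ligands Wnt2, Wnt6 and Wnt10a, and all 7 were marked in each library but Glis3KO-LID (2.48% of all genes). Dkk1 and Sfrp5 each had only 501 bp, the narrowest peak width, in WT-LID and Glis3KO-ND, with 627 and 976 bp in WT-ND. Sfrp4 had 919 bp in WT-LID, 936 bp in Glis3KO-ND and 1302 bp in WT-ND. With 2 kb windows Wnt2 was marked in Glis3KO-LID as well, which left 6 members, beside 4.3% of all genes. Wnt2 was also marked there when predicted transcripts were included. Wnt6 had no H3K4me3 in Glis3KO-LID, against 1232 bp in WT-LID, with 1627 bp in Glis3KO-ND and 920 bp in WT-ND. At Wnt2 there was none in Glis3KO-LID, against 1301 bp in WT-LID, with 1056 bp in Glis3KO-ND and 628 bp in WT-ND. Wnt10a had none in Glis3KO-LID, against 1078 bp in WT-LID, with 770 bp in Glis3KO-ND and 501 bp in WT-ND. Wnt10b had 1339 bp of H3K4me3 in Glis3KO-LID and none in WT-LID, with 1246 bp in Glis3KO-ND and 501 bp in WT-ND. A covered length at least 500 bp lower in Glis3KO-LID was found at 12 members (9.25% of all genes), among them Fzd5, Sfrp1, Sfrp2, Wnt3 and Wnt7a.

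On the ND fewer H3K4me3 calls differed. Marked in Glis3KO-ND and not in WT-ND were 2 members, Dkk2 and Wnt3 (2.39% of all genes), and 0 members showed the reverse (2.13%). Wnt3 had 501 bp in Glis3KO-LID, 1048 bp in WT-LID, 944 bp in Glis3KO-ND and none in WT-ND. Dkk2 had 1131 bp in Glis3KO-LID, 1403 bp in WT-LID, 769 bp in Glis3KO-ND and none in WT-ND. In both genes the WT-ND library alone lacked the peak. With predicted transcripts included, Wnt3 carried H3K4me3 in WT-ND too. By covered length 4 members (Dkk2, Wnt3, Wnt6 and Wnt10b) had at least 500 bp more in Glis3KO-ND than in WT-ND (3.89% of all genes), and 3 members (Fzd10, Wif1 and Wnt1) at least 500 bp less (3.9%).

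The diets were compared within each genotype, using the same libraries as above. H3K27me3 marked 7 members in WT-LID and not in WT-ND (2.07% of all genes), and 2 members in WT-ND and not in WT-LID (2.01%). The 7 were Sfrp1, Sfrp2, Sfrp4, Dkk2, Wif1, Fzd9 and Wnt6, and the 2 were Sfrp5 and Wnt16. In Glis3KO, 8 members were marked in Glis3KO-LID and not in Glis3KO-ND (8.92%), and 0 showed the reverse (0.152%). H3K4me3 marked Dkk2 and Wnt3 in WT-LID and not in WT-ND (2.54%), and Wnt1 and Wnt10b in WT-ND and not in WT-LID (1.79%). In Glis3KO, 0 members were marked by H3K4me3 in Glis3KO-LID and not in Glis3KO-ND (1.62%), and 8 members showed the reverse (4.07%), the 7 genes above and Wnt1.

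H3K27me3 peaks over the members were also broad. Among marked members the median width of the widest peak was 8093.5 bp in Glis3KO-LID, 2969 bp in WT-LID, 5543.5 bp in Glis3KO-ND and 3590.5 bp in WT-ND, beside 4009, 2425, 3048 and 2261 bp over all marked genes in those libraries. The peak was wider in Glis3KO-LID than in WT-LID at 21 of the 21 members marked in both, by a median ratio of 3.66, and at 98.4% of all such genes, by a median of 2.73. On the ND it was wider in Glis3KO-ND than in WT-ND at 14 of 16 members, by a median ratio of 1.44, and at 82.2% of all such genes, by a median of 1.42. Wnt2b and Wnt16 were the members with a narrower peak in Glis3KO-ND.

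Several broad peaks lay over neighbouring ligand genes. The start sites of Wnt6 and Wnt10a lie 20.1 kb apart on chromosome 1, and in Glis3KO-LID 1 peak of 44845 bp (chr1:74765222-74810066, GRCm38) covered both. In the other libraries Wnt10a had peaks of its own of 7462 bp in WT-LID, 29033 bp in Glis3KO-ND and 7338 bp in WT-ND, while Wnt6 had 3815 bp in WT-LID, 8639 bp in Glis3KO-ND and none in WT-ND. The peak over Wnt3a measured 36438 bp in Glis3KO-LID, 5356 bp in WT-LID, 10176 bp in Glis3KO-ND and 6546 bp in WT-ND. Wnt9a, 16.2 kb from Wnt3a, had a separate peak of 11947 bp in Glis3KO-LID and none elsewhere. Wnt1 was the member with the widest peak in WT-LID and WT-ND, with 23815 bp in Glis3KO-LID, 10871 bp in WT-LID, 22392 bp in Glis3KO-ND and 10889 bp in WT-ND. Its neighbour Wnt10b, 11.7 kb away, had 11689 bp in Glis3KO-LID, 3722 bp in WT-LID, 7513 bp in Glis3KO-ND and 3380 bp in WT-ND. Wnt3 and Wnt9b, 24.4 kb apart, form the remaining pair, and the annotated span of Wnt9b reaches past the Wnt3 start site. Apart from the joint peak of Wnt6 and Wnt10a in Glis3KO-LID, the genes of each pair had separate H3K27me3 peaks at their start sites.

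**Figure D3:**
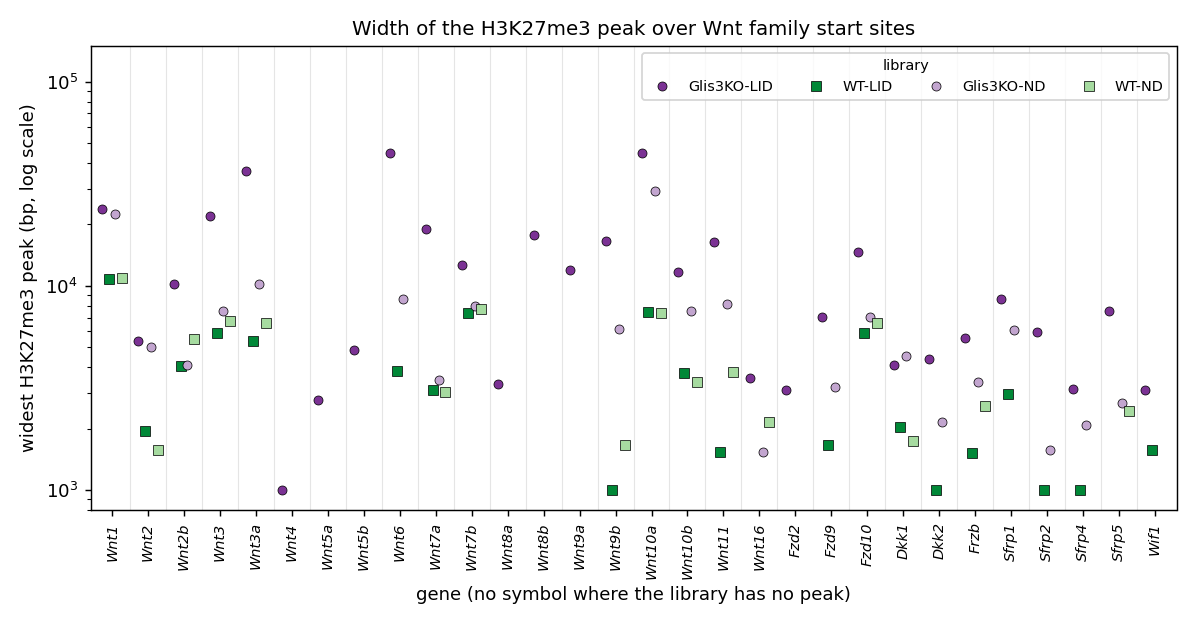
Width of the widest H3K27me3 peak within 1 kb of a start site (y axis, bp on a log scale) at the 30 members marked in any library (x axis), with 1 point for each library in which the gene was marked. At every gene marked in both LID libraries the Glis3KO-LID point lies above that of WT-LID, up to the joint peak of 44845 bp at Wnt6 and Wnt10a.

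Both marks lay within 1 kb of the same gene at 20 members in Glis3KO-LID, 19 in WT-LID, 21 in Glis3KO-ND and 14 in WT-ND, beside 10.7%, 5.21%, 6.55% and 5.01% of all genes in those libraries. Wnt2b, Wnt3a, Wnt7a, Wnt7b, Wnt9b, Wnt11, Fzd10 and Frzb had both in all 4 libraries, that is 8 members, beside 2.38% of all genes. The bases under both marks at Wnt2b numbered 1613 in Glis3KO-LID, 1490 in WT-LID, 1906 in Glis3KO-ND and 1668 in WT-ND. At Wnt9b they numbered 1183 in Glis3KO-LID, 102 in WT-LID, 1289 in Glis3KO-ND and 532 in WT-ND. Peaks of whole glands do not show whether both marks were on the same cells. H3K27me3 without H3K4me3 was found at 10 members in Glis3KO-LID, 2 in WT-LID, 1 in Glis3KO-ND and 2 in WT-ND, beside 6.76%, 1.29%, 2.12% and 1.42% of all genes. The 10 in Glis3KO-LID were Dkk1, Sfrp4, Sfrp5, Wnt1, Wnt2, Wnt6, Wnt8a, Wnt8b, Wnt10a and Wnt16.

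NKX2.1 and PAX8 peaks were counted around the same start sites, to ask how far the thyroid TFs lay near Wnt genes. Within 5 kb an NKX2.1 peak was found at 15 of 39 members (35.4% of all genes) and a PAX8 peak at 19 (42%). Both factors lay within 5 kb of 13 members (25.2%) and neither of 18 (47.8%). Frizzled receptors had the most, with NKX2.1 at 7 and PAX8 at 8 of 10. Ligands had NKX2.1 at 6 and PAX8 at 7 of 19, and antagonists had NKX2.1 at 2 and PAX8 at 4 of 10. With a window of 1 kb NKX2.1 was at 4 members (Fzd1, Fzd2, Wif1 and Wnt11), beside 21.1% of all genes, and PAX8 at 14, beside 29.2%. The nearest NKX2.1 peak lay a median of 12.2 kb from the members and 12.5 kb from all genes, and the nearest PAX8 peak 5.3 kb from the members and 9.2 kb from all genes.

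Within 50 kb nearly all members had a peak, as did most genes. NKX2.1 was found at 34 members (75.4% of all genes), PAX8 at 35 (77.4%), both at 33 (71.2%) and neither at 3 (18.4%). Dkk1, Dkk2 and Wnt16 were the 3 members with neither. The nearest NKX2.1 peak lay 300.5 kb from Dkk1 and 386.2 kb from Dkk2, and the nearest PAX8 peak 113.2 kb from Dkk1, 109.2 kb from Dkk2 and 218.0 kb from Wnt16. At the other end Fzd7 had 11 NKX2.1 and 10 PAX8 peaks within 50 kb. Fzd5 had 8 NKX2.1 and 6 PAX8 peaks, and Fzd6 had 7 of each.

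**Figure D4:**
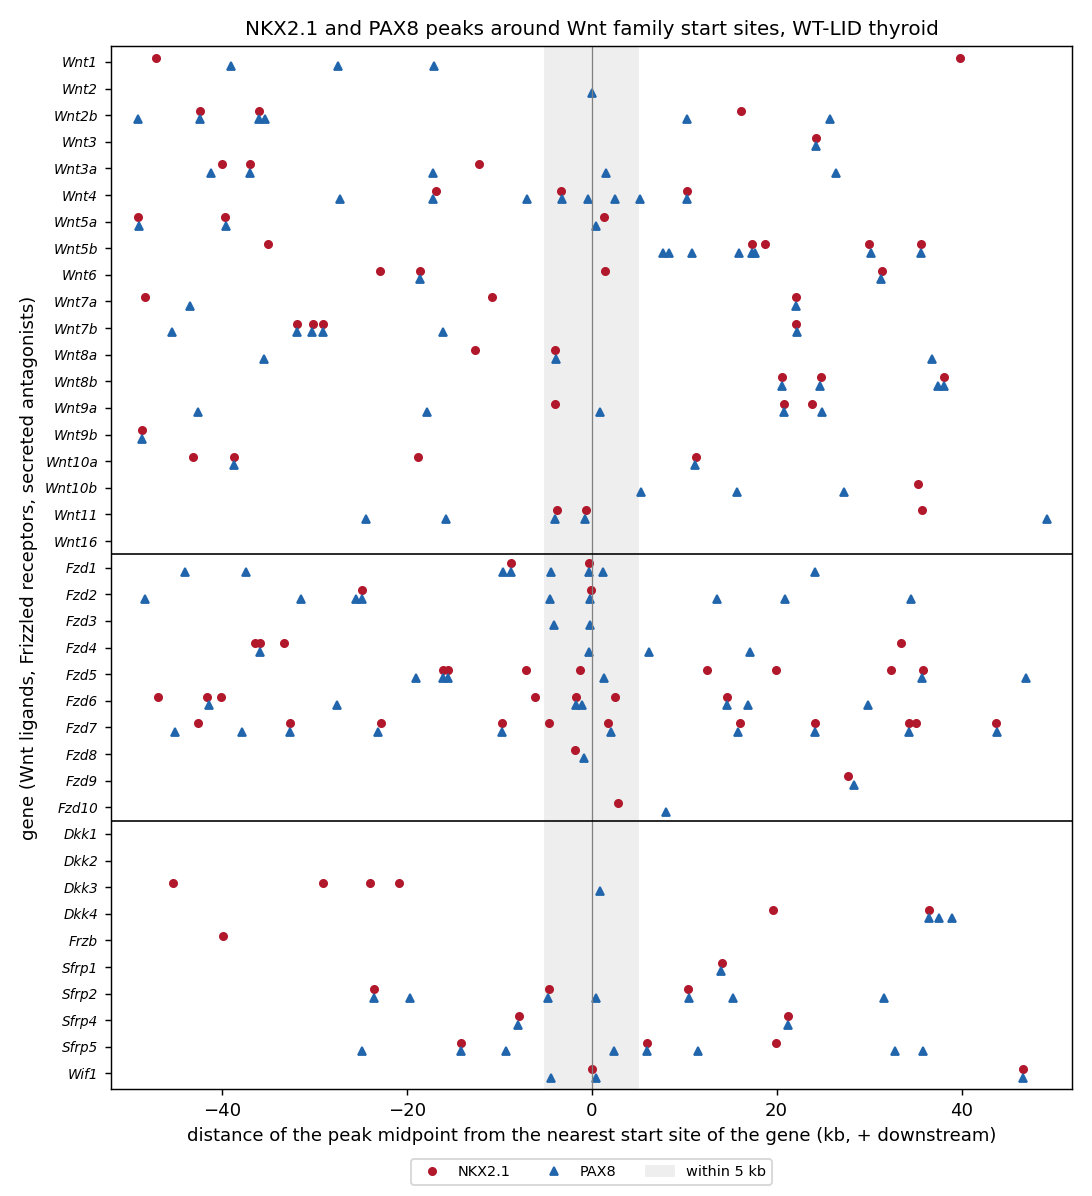
Distance of each NKX2.1 (circles) and PAX8 (triangles) peak midpoint from the nearest start site of the gene (x axis, kb, positive downstream) for the 39 genes (y axis, by family) in WT-LID thyroid, with the 5 kb window shaded. Of the Frizzled receptors only Fzd9 has no peak in the shaded window, and Dkk1, Dkk2 and Wnt16 have none within 50 kb.

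Factor peaks were set beside the mark class of the gene. Of the 7 members with H3K4me3 in all libraries and no H3K27me3, all Frizzled receptors, 7 had a PAX8 peak and 5 an NKX2.1 peak within 5 kb, beside 63.2% and 52.9% of the 9997 genes of that class. Of the 14 members with H3K27me3 in all libraries, 3 had a PAX8 peak (Wnt2, Wnt3a and Wnt11) and 2 an NKX2.1 peak (Fzd10 and Wnt11), beside 29.7% and 16.5% of the 875 genes of that class. The 16 members with H3K27me3 in some libraries had 8 with each factor, beside 32.5% for PAX8 and 23.5% for NKX2.1 of 2845 genes. Of the 29 PAX8 peaks within 5 kb of a member, 10 touched an H3K27me3 peak of Glis3KO-LID, 4 of WT-LID, 4 of Glis3KO-ND and 2 of WT-ND, which is 34.5%, 13.8%, 13.8% and 6.9%. Of all PAX8 peaks the shares were 2.92%, 0.585%, 0.917% and 0.582%. Of the 18 NKX2.1 peaks there, 6 touched H3K27me3 in Glis3KO-LID, 1 in WT-LID, 2 in Glis3KO-ND and 1 in WT-ND, beside 1.54%, 0.157%, 0.259% and 0.184% of all NKX2.1 peaks in those libraries. The shares over all peaks of a factor were not limited to peaks near start sites or near marked genes. They are therefore no matched baseline for peaks near members.

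Some of these peaks lay at the start site itself. The PAX8 peak of Wnt2 (chr6:18030226-18030525) was centred 70 bp downstream of the start site, in exon 1, and touched H3K27me3 in all 4 libraries. The PAX8 peak of Wnt3a (chr11:59289016-59289315), 1586 bp downstream in intron 1, also touched H3K27me3 in all 4 libraries. At Wif1 an NKX2.1 peak (chr10:121033854-121034153) was centred 1 bp upstream of the start site and touched H3K4me3 in all 4 libraries and H3K27me3 in Glis3KO-LID. Fzd3 and Fzd4 had PAX8 peaks 189 and 309 bp upstream of their start sites and no NKX2.1 peak within 5 kb. Wnt4 had 3 PAX8 peaks within 5 kb, 3247 and 381 bp upstream and 2538 bp downstream, and 1 NKX2.1 peak 3289 bp upstream.

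Of the 22 factor peaks within 5 kb of a Frizzled start site, 12 touched H3K4me3 in all 4 libraries, 3 in some of them and 7 in none. In any one library H3K4me3 was touched by at most 10.7% of all NKX2.1 peaks and 13.8% of all PAX8 peaks. All peaks include those far from start sites, whereas the 22 were taken near start sites that carried H3K4me3. These shares are therefore no matched baseline for the 22 peaks. Fzd7 had an NKX2.1 peak 1805 bp and a PAX8 peak 2121 bp downstream of its start site, both in its single exon and under H3K4me3 in all 4 libraries. Fzd8 had an NKX2.1 peak 1744 bp and a PAX8 peak 804 bp upstream, which touched H3K4me3 in all 4 libraries. At Fzd5 the PAX8 peak 1348 bp downstream, in exon 2, touched H3K4me3 in all 4 libraries, and the NKX2.1 peak 1239 bp upstream did so in WT-LID and Glis3KO-ND only. The Fzd2 pair, with NKX2.1 60 bp and PAX8 191 bp upstream, touched H3K4me3 in all 4 libraries and H3K27me3 in Glis3KO-LID. The 7 peaks without H3K4me3 included the Fzd6 pair, with NKX2.1 1681 bp and PAX8 1657 bp upstream, and a second NKX2.1 peak of Fzd7, 4594 bp upstream. The NKX2.1 peak of Fzd10, 2845 bp downstream, was also among them and lay in H3K27me3 of Glis3KO-LID and WT-ND.

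Among the ligands the marks under the peaks varied. Wnt5a had a PAX8 peak 522 bp downstream, in exon 1, and an NKX2.1 peak 1296 bp downstream, in intron 1, both under H3K4me3 and free of H3K27me3 in all 4 libraries. Wnt9a had a PAX8 peak 946 bp downstream under H3K4me3 in all 4 libraries, with H3K27me3 in Glis3KO-LID. The NKX2.1 peak of Wnt6, 1395 bp downstream in intron 1, touched H3K27me3 in Glis3KO-LID, WT-LID and Glis3KO-ND and no H3K4me3. The NKX2.1 and PAX8 peaks of Wnt11, 628 and 661 bp upstream of its downstream start site, touched H3K27me3 in Glis3KO-LID and Glis3KO-ND and in neither WT library.

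NKX2.1 and PAX8 peaks overlapped each other within 5 kb of Fzd1, Fzd2, Fzd6, Sfrp2, Wnt4, Wnt8a and Wnt11, the last at 2 places. Of the 18 NKX2.1 peaks 8 overlapped a PAX8 peak (44.4%), beside 50.8% of all NKX2.1 peaks, and of the 29 PAX8 peaks 8 overlapped an NKX2.1 peak (27.6%), beside 45.9% of all PAX8 peaks. The bases under both peaks are printed for a receptor, a ligand and an antagonist, so that the letters at a shared site can be read. These are the 3 of 8 shared sites with a motif match, and the other 5 held none. Sequences are of the RefSeq assembly GRCm38.p6, on the strand of the gene, and capitals mark a match on either strand to CTCAAG or CAAGTG, forms of the NKX2.1 motif, or to TGCNTGNC, a form of the PAX8 motif. CTCAAG and CAAGTG overlap where CTCAAG is followed by TG. The Fzd1 site (chr5:4758320-4758609, 243 bp upstream by the NKX2.1 peak) lies under H3K4me3 in all 4 libraries. The Wnt4 site (chr4:137274239-137274496) and the Sfrp2 site (chr3:83761581-83761786, 4591 bp upstream by the NKX2.1 peak) touch neither mark in any library.
Fzd1: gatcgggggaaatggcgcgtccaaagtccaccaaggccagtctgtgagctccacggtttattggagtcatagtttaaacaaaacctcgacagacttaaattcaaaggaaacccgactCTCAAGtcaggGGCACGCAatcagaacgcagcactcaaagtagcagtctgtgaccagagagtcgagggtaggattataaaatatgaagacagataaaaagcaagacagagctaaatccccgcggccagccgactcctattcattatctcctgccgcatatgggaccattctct
Wnt4: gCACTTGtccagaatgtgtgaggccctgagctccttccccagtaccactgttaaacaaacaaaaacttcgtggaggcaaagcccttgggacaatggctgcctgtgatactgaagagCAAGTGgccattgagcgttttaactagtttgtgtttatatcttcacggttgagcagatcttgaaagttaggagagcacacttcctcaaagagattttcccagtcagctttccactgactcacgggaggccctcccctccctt
Sfrp2: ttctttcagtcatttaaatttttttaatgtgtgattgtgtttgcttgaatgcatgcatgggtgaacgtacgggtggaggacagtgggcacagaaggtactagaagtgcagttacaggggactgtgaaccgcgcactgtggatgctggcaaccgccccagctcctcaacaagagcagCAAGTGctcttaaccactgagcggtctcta

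The Fzd1 site held 1 NKX2.1 and 1 PAX8 motif, separated by a few bases, the Wnt4 site 2 NKX2.1 motifs in opposite directions, and the Sfrp2 site 1 NKX2.1 motif. Over the 18 NKX2.1 peaks within 5 kb of members CTCAAG was found in 1 (5.56%), beside 33.6% of all NKX2.1 peaks and 16.1% of RefSeq promoters, which like the peaks are 300 bp long. CAAGTG was found in 5 of 18 (27.8%), beside 32.4% of all NKX2.1 peaks and 13.7% of promoters. TGCNTGNC was found in 4 of the 29 PAX8 peaks (13.8%), beside 26.7% of all PAX8 peaks and 16.5% of promoters. A match is a description of the letters, and its absence says only that they are not in the window.

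CpG content of the start sites differed between the mark classes. The ratio of observed to expected CG dinucleotides within 1 kb of the most 5′ start site had a median of 0.66 over the members and 0.50 over all protein-coding genes, and 27 of 39 members (69.2%) had at least 0.6, beside 36.1% of all genes. The 7 receptors with H3K4me3 alone ranged between 0.70 (Fzd6) and 0.92 (Fzd3), above the median of 0.65 over all genes of that class. Members with H3K27me3 in all libraries had a median of 0.62, as did all genes of that class. The lowest values were 0.28 at Wnt8a, 0.29 at Dkk4, 0.33 at Wnt8b, 0.35 at Dkk3, 0.39 at Wnt10a and 0.40 at Wnt16. The 4 members without H3K4me3 in any library thus had 0.28 to 0.40, while every other member but Dkk3 and Wnt10a had at least 0.43.

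**Figure D5:**
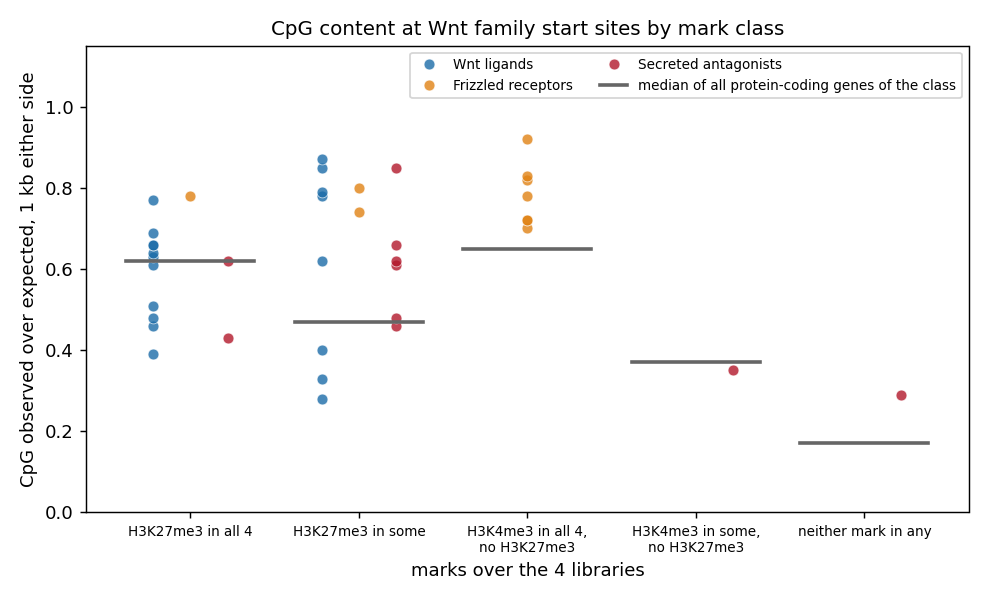
Ratio of observed to expected CG dinucleotides within 1 kb of the most 5′ start site (y axis) for each member (points, coloured by family), by the marks over the 4 libraries (x axis), with grey lines for the median of all protein-coding genes of the class. The 7 Frizzled receptors with H3K4me3 alone lie between 0.70 and 0.92, above the line of their class at 0.65, and Dkk4, with neither mark, is at 0.29.

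The 150 bases before the start site are printed for 1 gene of each of 3 states, with every CG in capitals, from the RefSeq promoters of GRCm38.p6 on the strand of the gene. Fzd7 (chr1:59481997-59482146) carried H3K4me3 in every library, Wnt1 (chr15:98789707-98789856) H3K27me3 in every library, and Wnt16 (chr6:22288077-22288226) no H3K4me3 and H3K27me3 in 3 libraries.
Fzd7: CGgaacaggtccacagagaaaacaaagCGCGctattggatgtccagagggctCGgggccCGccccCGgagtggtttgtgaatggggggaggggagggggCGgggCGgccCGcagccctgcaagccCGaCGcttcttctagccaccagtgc
Wnt1: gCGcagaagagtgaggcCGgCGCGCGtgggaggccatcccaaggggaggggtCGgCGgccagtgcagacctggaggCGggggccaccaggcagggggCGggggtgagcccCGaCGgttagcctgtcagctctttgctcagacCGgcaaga
Wnt16: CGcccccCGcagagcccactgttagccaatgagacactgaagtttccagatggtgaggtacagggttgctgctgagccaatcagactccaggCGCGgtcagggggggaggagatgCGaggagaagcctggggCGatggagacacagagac
There were 11 CG in Fzd7, 12 in Wnt1 and 6 in Wnt16, so that over this short stretch Wnt1 was as rich in CG as Fzd7, whereas over the window of 1 kb either side the ratio was 0.83 at Fzd7, 0.48 at Wnt1 and 0.40 at Wnt16.

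Other genes of the pathway, 64 from a list drawn up from general knowledge, were counted by their place in it. All 16 intracellular genes, such as Ctnnb1 (β-catenin), Apc and Axin2, and all 13 nuclear genes carried H3K4me3 in all 4 libraries, beside 56.6% of all genes. So did 17 of 20 membrane genes and 10 of 15 genes of secretion and extracellular regulation, the last being near the share of all genes. H3K27me3 was found at 23 of the 64 in Glis3KO-LID, 11 in WT-LID, 15 in Glis3KO-ND and 14 in WT-ND, beside 17.4%, 6.5%, 8.67% and 6.43% of all genes in those libraries. In all 4 libraries 11 were marked (4.17% of all genes), namely the extracellular Notum, Rspo1, Rspo2 and Draxin, the membrane proteins Ror2, Lgr5, Kremen2 and Celsr3, and the nuclear Lef1, Pygo1 and Sp5. No intracellular gene was marked in WT-LID, Glis3KO-ND or WT-ND, and 4 were in Glis3KO-LID. Ror2, a receptor of Wnt5a, had no H3K4me3 in Glis3KO-LID, against 1486 bp in WT-LID, with 1349 bp in Glis3KO-ND and 1101 bp in WT-ND. H3K4me3 in all libraries without H3K27me3 was found at 38 of the 64 (47.6% of all genes). Within 5 kb NKX2.1 lay at 28 (35.4% of all genes) and PAX8 at 44 (42%) of them, and both at 23 (25.2%), including Lrp5, Lgr4, Znrf3, Ctnnb1 and Apc.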

How the data were processed

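NKX2.1, PAX8, H3K4me3 and H3K27me3 ChIP-seq peaks of mouse thyroid were analysed. Per the study's methods, the authors removed low-quality reads, trimmed adapters (Cutadapt 1.12), mapped single-end reads uniquely to mm10 (Bowtie 1.2), removed duplicates (Picard 1.110) and called peaks with HOMER 4.10.3, factor peaks against input and resized to 300 bp, histone peaks as regions. The submitters' notes also name bedtools 2.24.0. The deposited lists used here held 46636 NKX2.1 and 51586 PAX8 peaks, more for each factor than the study reports in its text. The reason for this difference is not known, and it bears on the counts of factor peaks. The deposited files list chromosome, start, end and name of each peak, with no score, p-value or read number, so peak height and depth could not be used. Histone input libraries are among the labelled samples, but the methods do not say that they were used in calling the histone peaks. Whether sequencing depth affected the number and width of peaks was not tested. The lists for rat PCCl3 cells and the merged lists were not analysed here.

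Positions were counted from 1 and set against curated RefSeq transcripts of GRCm38.p6 (mm10), with 21000 protein-coding genes and 26032 distinct start sites; 6 members had several. No peak passed a chromosome end of that assembly. Promoters were in the RefSeq table for 27 of 39 members, and these 27 equalled the genome. Analysis was done in Python 3.11.15, and the window functions were tested on simulated data with 2000 genes. With 1 library per group no test was run, and counts are set beside all protein-coding genes. The members and lists were chosen with earlier results of these data known. Values are given for members whose call differed between libraries, members with H3K27me3 in every library and members with a factor peak within 5 kb; the printed sequences were picked after the values were seen. Alternatives changed the windows, the covered length required, the start sites and the length of the H3K27me3 lists.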

Additional observations from a re-analysis of the deposited data

Results flagged for a closer look

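At 3 members the Glis3KO minus WT covered length had opposite signs on the 2 diets, by at least 500 bp each way. Each value rests on 1 library per group, and the difference between diets was not tested. H3K27me3 at Frzb exceeded WT-LID by 832 bp in Glis3KO-LID and fell by 764 bp in Glis3KO-ND relative to WT-ND, a difference of 1596 bp between the diets. H3K4me3 at Wnt3 fell by 547 bp in Glis3KO-LID relative to WT-LID and was 944 bp higher in Glis3KO-ND than in WT-ND, a difference of -1491 bp. H3K4me3 at Wnt6 fell by 1232 bp in Glis3KO-LID relative to WT-LID and was 707 bp higher in Glis3KO-ND than in WT-ND, a difference of -1939 bp. At Wnt6 the Glis3KO-LID value and at Wnt3 the WT-ND value was 0. For Wnt3 this holds for curated start sites, since it carried H3K4me3 in WT-ND with predicted transcripts included.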

How the results depend on the processing

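No paired analysis was possible because each group had 1 library and no result came from a test. Of 121 alternative counts, 109 stayed within 1.5 times the reported count and 12 did not. With the H3K27me3 lists reduced to 2631 peaks, 3 instead of 9 members were marked in Glis3KO-LID and not in WT-LID, and 4 instead of 0 in WT-LID and not in Glis3KO-LID. The WT-LID list lost no peak by this reduction, and the 4 had wider peaks in Glis3KO-LID before it. The same reduction, added after seeing the data for these counts, gave 7 instead of 16 members with at least 500 bp more H3K27me3 in Glis3KO-LID than in WT-LID, 2 instead of 7 marked in Glis3KO-LID and in no other library, and 14 instead of 20 with both marks in Glis3KO-LID. With 500 bp windows, or with at least 500 bp covered, 1 instead of 0 members carried H3K4me3 in WT-ND and not in Glis3KO-ND. With 2 kb windows 1 member (Wnt8b) instead of 0 carried H3K27me3 in WT-ND and not in Glis3KO-ND. Leaving out the Glis3KO-LID library, an alternative added after seeing the data except for H3K27me3 in every library, gave 16 instead of 9 members without H3K27me3 and 13 instead of 7 with H3K4me3 in every library and no H3K27me3. It gave 31 instead of 24 members with H3K4me3 in every library and 11 instead of 8 with both marks. NKX2.1 lay at 4 members within 1 kb and 24 within 20 kb, against 15 within 5 kb, and PAX8 at 29 within 20 kb, against 19 within 5 kb. The share of all genes also changes with the setting. A count given here without that share shows only how the number of members moved, and not whether members differ from other genes. Peak lists without read numbers limit all counts: a missing peak is a missing call, and the depth behind it is unknown.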

Other observations

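Of the 6 members with several start sites, Wnt5a, Wnt5b and Wnt7b had start sites that differed in which marks they carried. The start sites of Wnt11, Dkk3 and Fzd6 differed in covered length only. At Dkk3 H3K4me3 covered between 989 and 1445 bp in WT-LID, depending on the start site. Wnt5a had H3K4me3 over the whole window and no H3K27me3 at its most 5′ start site (chr14, position 28505473) in all 4 libraries. Its downstream start site (position 28511405) had 501 bp of H3K4me3 in Glis3KO-LID, 768 bp in WT-LID, 501 bp in Glis3KO-ND and none in WT-ND, and the 1527 bp of H3K27me3 in Glis3KO-LID lay there. Wnt5b had its H3K27me3 of 1943 bp in Glis3KO-LID at the most 5′ start site, where H3K4me3 covered 1548 bp in Glis3KO-LID, 1420 bp in WT-LID, 1582 bp in Glis3KO-ND and 1528 bp in WT-ND. Its most 3′ start site had H3K4me3 over 763 bp in WT-LID and 630 bp in WT-ND and none in Glis3KO-LID or Glis3KO-ND. At Wnt7b all 3 start sites were covered by H3K27me3 over the whole window in every library, and H3K4me3 was widest at the most 5′ one, with 1307 bp in Glis3KO-LID, 1455 bp in WT-LID, 1502 bp in Glis3KO-ND and 1595 bp in WT-ND. At the most 5′ start site of Wnt11 H3K27me3 covered the whole window in Glis3KO-LID, 1536 bp in WT-LID and the whole window in Glis3KO-ND and WT-ND. At its downstream start site it covered the whole window in Glis3KO-LID, 594 bp in WT-LID, the whole window in Glis3KO-ND and 413 bp in WT-ND. These values rest on 1 library each and were not tested.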
